A study of Aspergillus nidulans FGSC A4 with 21 samples.

Results

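The genes described here are 64 lipid, sterol and peroxisome genes of *Aspergillus nidulans*, taken from 2403 genes that were listed as changed by benzo[*a*]pyrene (BaP) at 1 or more of 3 time points. A listed gene was taken when its description named a fatty acid, a lipid, a sterol, an acyl-CoA or the peroxisome. Genes described as transporters, transcription factors, mitochondrial proteins, peptidases or cytochromes P450 were left out. So were genes whose description named farnesol or sterigmatocystin, and *acuD* and *acuE* of the glyoxylate cycle. Because the choice rests on words, the group also holds genes with their main work elsewhere, such as AN6874, a mannosyltransferase of protein glycosylation, and *qutG*, a quinate-inducible inositol monophosphatase.

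Hyphae of the FGSC A4 strain were grown for 18 h with 1% glucose, washed, and moved to minimal medium with 0.1% glucose and either 200 μM BaP dissolved in DMSO or the same volume of DMSO alone. RNA was sequenced after 6, 24 and 48 h from 3 BaP and 3 DMSO cultures at each time, 18 libraries in all. Every library therefore comes from hyphae that had been shifted to low glucose, and the DMSO libraries are the reference at the same time point. BaP is a polycyclic aromatic hydrocarbon, built of fused rings of carbon and hydrogen and formed when organic matter burns incompletely.

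Fatty acids enter degradation as acyl-CoA thioesters, which are shortened by β-oxidation, in fungi partly in the mitochondria and partly in peroxisomes. Peroxisomes import their enzymes with the help of proteins called peroxins, and also house steps of siderophore synthesis in aspergilli. The opposite direction, membrane growth, runs through phosphatidic acid to the phospholipids, of which phosphatidylethanolamine and phosphatidylcholine are the bulk, while sphingolipids and ergosterol are concentrated in the fungal plasma membrane.

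Of the 64 genes, 18 were listed at 6 h, 37 at 24 h and 47 at 48 h, and 4 were listed at all 3 times. Transcript levels are given as RPKM, reads per kilobase of transcript, scaled to the library size. The fold change is the BaP mean minus the DMSO mean of log2(RPKM + 1), which understates the change of genes near 0 RPKM, and a gene is said to have risen or fallen when that value was past 1 or -1 with a limma adjusted p under 0.05. By this rule 13 genes were up and 1 down at 6 h. At 24 h there were 12 up and 14 down, and at 48 h 17 up and 25 down. The share that rose was thus 72.2% at 6 h, 32.4% at 24 h and 36.2% at 48 h, against 63.6%, 41.5% and 40.9% of all listed genes. The share that fell was 5.56%, 37.8% and 53.2%, against 10.4%, 32.6% and 43% of all listed genes. In either direction together, 77.8%, 70.3% and 89.4% passed, against 74%, 74.1% and 83.9%. Nothing is read from these differences over the whole group, and the directions below are described role by role. Their median log2 fold change was 1.32 at 6 h, -0.93 at 24 h and -1.02 at 48 h, against 1.13, -0.19 and -0.57 over all listed genes.

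Only genes called beforehand by the authors, in the same libraries, are in the tables, so passing the test again is no independent evidence, and a gene missing at a time point was not analysed at that time. The BaP and DMSO libraries did not overlap for any of the 18, 37 and 47 genes, which was also so for 99.3%, 93.7% and 99.7% of all listed genes. Recovered library sizes ran from 5.97 to 13.7 M reads (M, mega). The BaP libraries were all smaller than the DMSO libraries at 6 and 48 h, where the effects of treatment and of depth cannot be told apart. Some libraries, called here by their names in the tables, stood nearer to the other treatment than their replicates. B23 (BaP, 24 h) was the nearest of its group for 32 of 37 genes, D26 (DMSO, 24 h) for 35 of 37, and D33 (DMSO, 48 h) for 46 of 47. Among all listed genes the same libraries were nearest in 79.6%, 81.4% and 89.1%. In bulk RNA, fewer cells of a kind and less RNA per cell cannot be told apart.

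**Figure D1:**
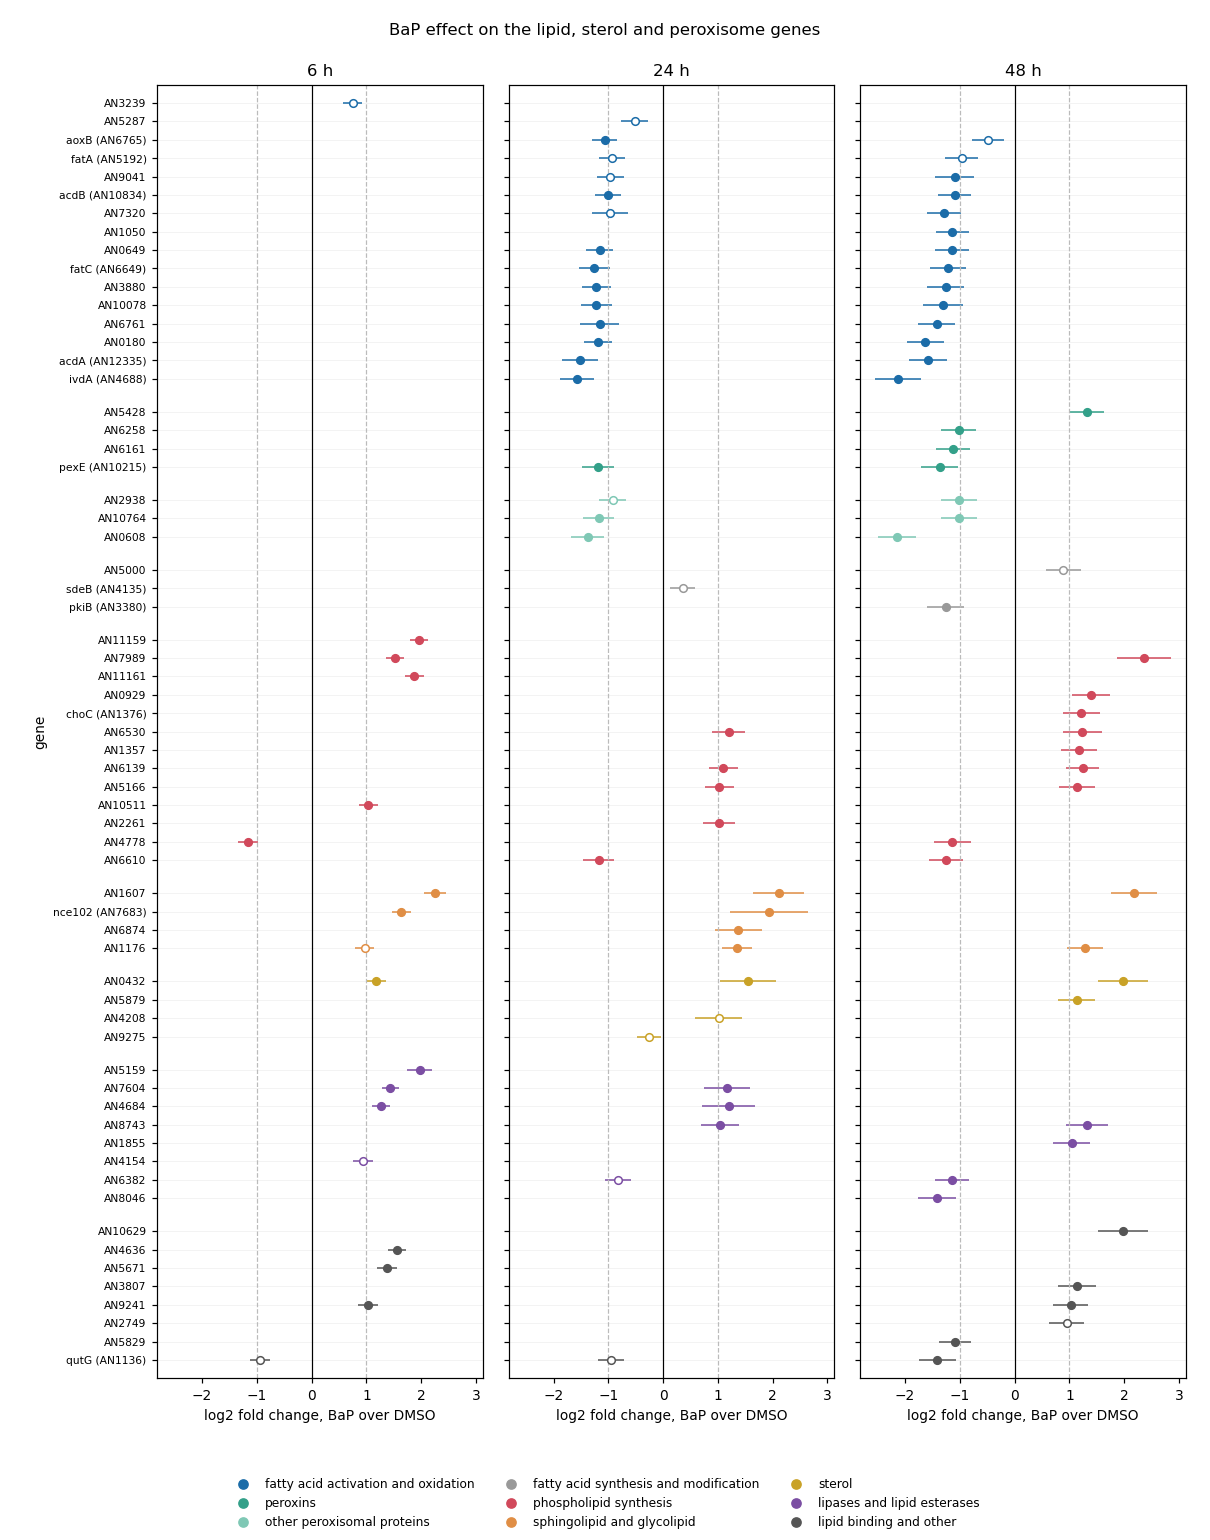
Log2 fold change of BaP over DMSO (x axis, log2 of RPKM + 1) for 63 of the 64 genes (rows, coloured by role) at 6, 24 and 48 h, with standard errors. Filled points were past both limits (dashed lines at -1 and 1, limma adjusted p under 0.05), open points were not, and a missing point means that the gene was not listed at that time. All 14 genes of fatty acid activation and oxidation listed at 24 h and all 14 listed at 48 h lie left of 0.

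Genes for fatty acid activation and oxidation made up the largest set, with 16 members, and all that were listed after 6 h were lower with BaP. That holds for the roles as set after the descriptions were read. By the words alone AN5000 would have been in the set, and it was higher with BaP at 48 h (0.89, short of the limit). *fatA*, *fatC* and AN10078, lower with BaP at 24 and 48 h, would not have been. At 24 h, 14 were listed, of which 10 fell and 4 were lower without passing the limits, where 32.6% of all listed genes fell. At 48 h, again 14 were listed, of which 12 fell, where 43% of all listed genes did. The median log2 fold change of the set was -1.16 at 24 h and -1.24 at 48 h, against -0.19 and -0.57 over all listed genes. The set covered the successive steps of the pathway: acyl-CoA synthetases, the peroxisomal importer, acyl-CoA oxidase and dehydrogenases, enoyl-CoA hydratase, hydroxyacyl-CoA dehydrogenase and thiolase.

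The largest fall in the set was that of *ivdA* (AN4688, chromosome III, bases 1313102 to 1314772, minus strand), described as an acyl-CoA dehydrogenase and known as the isovaleryl-CoA dehydrogenase of leucine breakdown rather than of fatty acids. At 48 h *ivdA* stood at 9.24, 7.93 and 5.40 RPKM in the BaP libraries, against 53.9, 48.6 and 17.03 RPKM in the DMSO libraries. The last of those DMSO values belongs to D33, and it was still above every BaP library. The log2 fold change was -2.13 ± 0.42 (SE, n = 3 each, limma adjusted p = 0.00156). At 24 h *ivdA* had 9.09, 16.02 and 10.6 RPKM with BaP, against 35.5, 28.7 and 47.6 RPKM with DMSO, a log2 fold change of -1.58 ± 0.31 (SE, n = 3 each, limma adjusted p = 0.0155).

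A second acyl-CoA dehydrogenase gene, *acdA* (AN12335), had 5.49, 12.3 and 8.03 RPKM in the BaP libraries at 24 h, against 28.3, 19.6 and 29.2 RPKM in the DMSO libraries. The BaP libraries were all lower, with B23 the highest of the 3. The log2 fold change was -1.52 ± 0.33 (SE, n = 3 each, limma adjusted p = 0.0155) at 24 h and -1.58 ± 0.35 (SE, n = 3 each, limma adjusted p = 0.00221) at 48 h. *acdB* (AN10834), with the same domain, fell by 1.01 at 24 h and by 1.10 at 48 h on the log2 scale. Of 5 further genes with acyl-CoA dehydrogenase descriptions, AN3880 fell at both times (-1.22 at 24 h and -1.26 at 48 h), and so did AN6761 (-1.16 and -1.42). AN7320 was at -0.97 at 24 h, short of the limit, and fell by 1.29 at 48 h. AN5287 was listed at 24 h with 0.429, 0.108 and 0.250 RPKM with BaP, against 0.780, 0.555 and 1.09 RPKM with DMSO, and did not pass (-0.52, limma adjusted p = 0.0723). AN3239 was the one gene of the set listed at 6 h and the one that stood higher with BaP, at 1.19, 1.99 and 1.73 RPKM, against 0.587, 0.438 and 0.657 RPKM with DMSO, with a log2 fold change of 0.75. That value missed the limit and turned to -0.35 when the libraries were scaled to the same median over the listed genes (library medians set equal).

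*aoxB* (AN6765, chromosome I, bases 3097788 to 3100194, minus strand) encodes a long-chain acyl-CoA oxidase, the enzyme of the first peroxisomal β-oxidation step. At 24 h it was listed at 0.308, 0.415 and 0.359 RPKM in the BaP libraries, against 2.06, 1.49 and 2.05 RPKM in the DMSO libraries, with means 5.17-fold apart. The 3 BaP libraries lay close together, far under the DMSO libraries, and the log2 fold change was -1.07 ± 0.23 (SE, n = 3 each, limma adjusted p = 0.0155). These values are near 0 RPKM, and the lowest library held at most 7.06 reads and the highest at most 60. At 48 h the gene was listed at 0.0818, 0 and 0 RPKM with BaP, against 0.494, 0.537 and 0.291 RPKM with DMSO, values that stand for at most 11.8 reads in any library, and its log2 fold change of -0.49 did not pass (limma adjusted p = 0.12).

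Activation of the acid to its CoA ester is done by acyl-CoA synthetases, 3 of which were listed. *fatC* (AN6649) had 0.832, 1.79 and 1.49 RPKM with BaP at 24 h, against 5.60, 3.44 and 4.87 RPKM with DMSO. At 48 h *fatC* had 0.530, 0.778 and 0.145 RPKM with BaP, against 2.29, 3.30 and 1.76 RPKM with DMSO. It fell at both times, by 1.25 and 1.22 on the log2 scale. AN0649, a long-chain fatty acid-CoA ligase, also fell at both times (-1.16 and -1.15). *fatA* (AN5192), annotated for very long chains, was lower with BaP at both times but short of the limit, at -0.93 (limma adjusted p = 0.0158) and -0.96 (limma adjusted p = 0.00849).

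AN10078 matched the RefSeq symbol *pxa1*. In yeast, Pxa1 is a subunit of the transporter that carries activated fatty acids into the peroxisome. At 48 h AN10078 had 11.4, 11.7 and 11.4 RPKM in the BaP libraries, against 43.1, 35.8 and 17.2 RPKM in the DMSO libraries. The BaP libraries were nearly equal, whereas the DMSO libraries spread, with D33 the lowest. The log2 fold change was -1.31 ± 0.36 (SE, n = 3 each, limma adjusted p = 0.00484) at 48 h and -1.22 ± 0.29 (SE, n = 3 each, limma adjusted p = 0.0155) at 24 h.

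The later steps of the pathway moved the same way. AN0180, an enoyl-CoA hydratase gene, had 3.73, 3.29 and 1.53 RPKM with BaP at 48 h, against 12.97, 11.1 and 7.96 RPKM with DMSO, and fell at 24 h (-1.18) and at 48 h (-1.63 ± 0.34, SE, n = 3 each). AN9041, a hydroxyacyl-CoA dehydrogenase gene, was at -0.97 at 24 h, without passing, and fell by 1.09 at 48 h. AN1050, a 3-ketoacyl-CoA thiolase gene with the RefSeq symbol *kat1*, was listed at 48 h, where it was the most abundant of the set. It had 48.8, 48.95 and 40.7 RPKM with BaP, against 116, 112 and 83.4 RPKM with DMSO, and fell by 1.14 (SE 0.30, n = 3 each). The thiolase releases acetyl-CoA from the chain at the end of each round.

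**Figure D2:**
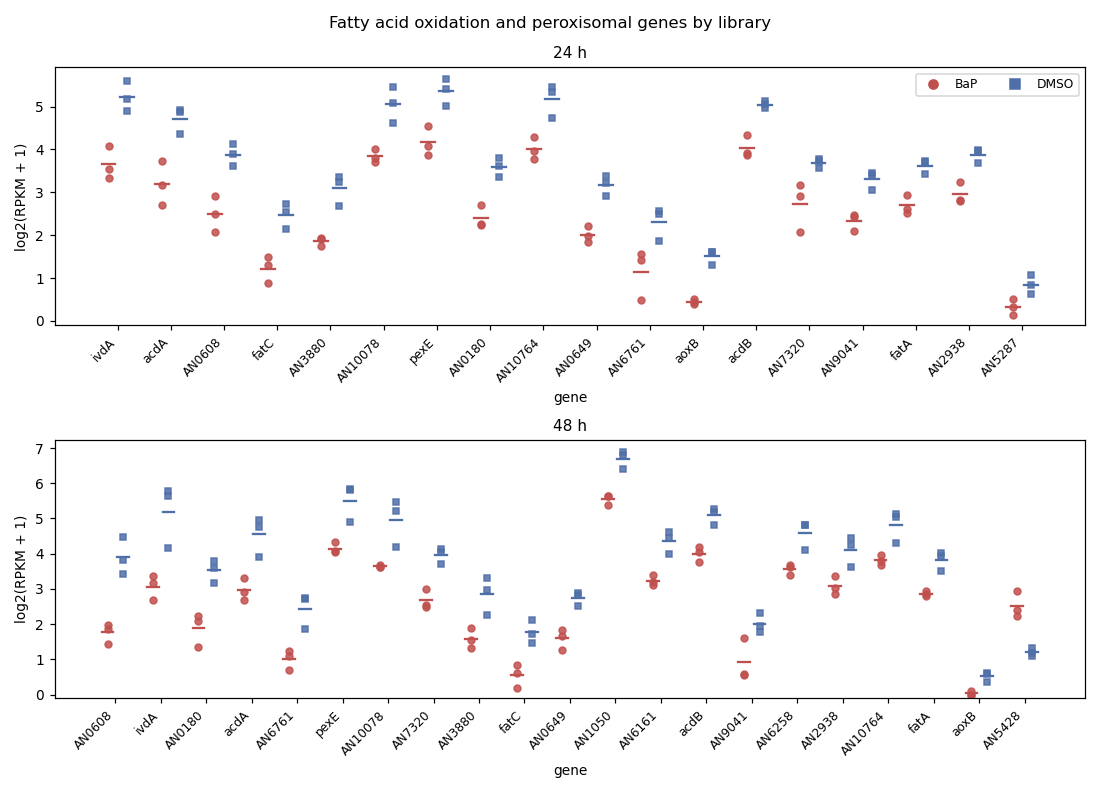
Levels of the fatty acid oxidation genes and of all but 1 of the peroxisomal genes in every library, as log2(RPKM + 1), with BaP (red circles) and DMSO (blue squares) side by side and a bar at each group mean, at 24 h (upper panel) and 48 h (lower panel). In both panels BaP lies under DMSO for every gene shown except AN5428, at the right end of the 48 h panel.

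Of 5 peroxins, genes for peroxisome biogenesis, 2 were listed at 24 h, of which 1 fell, and 5 at 48 h, of which 3 fell and 1 rose. Among all listed genes 32.6% fell at 24 h and 43% at 48 h, so that with so few peroxins nothing is read from their share. *pexE* (AN10215), the receptor that recognises the peroxisomal targeting signal 1 on imported enzymes, had 13.7, 22.5 and 16.01 RPKM with BaP at 24 h, against 41.8, 31.2 and 48.9 RPKM with DMSO. At 48 h *pexE* had 15.9, 18.96 and 15.4 RPKM with BaP, against 55.9, 54.7 and 28.8 RPKM with DMSO. It fell at both times, with log2 fold changes of -1.18 ± 0.29 and -1.37 ± 0.34 (SE, n = 3 each).

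AN6161, with the RefSeq symbol *pex8*, fell by 1.12 at 48 h, and the peroxin AN6258, past the limits in 3 of the 6 fits that each left out 1 library, fell by 1.02. The peroxin that rose was AN5428, which has no symbol. It had 3.65, 4.29 and 6.72 RPKM with BaP at 48 h, against 1.16, 1.26 and 1.49 RPKM with DMSO, and rose by 1.33 ± 0.31 (SE, n = 3 each, limma adjusted p = 0.00271). Its levels were the lowest of the 5 in DMSO libraries, with at most 58.0 reads in any library.

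The 3 other peroxisomal proteins were all lower with BaP. AN0608 and AN10764 have orthologs that act in peroxisomes on the synthesis of the siderophore triacetylfusarinine C, which takes up iron. The descriptions of both also name ergosterol synthesis, and the words alone would have placed them with the sterol genes. AN0608 had 1.73, 2.67 and 2.94 RPKM with BaP at 48 h, against 13.2, 21.4 and 9.70 RPKM with DMSO, so that the means differed 6.03-fold. This was the largest fall among the lipid, sterol and peroxisome genes, next to that of *ivdA*, with a log2 fold change of -2.14 ± 0.34 (SE, n = 3 each, limma adjusted p = 0.00108), after -1.38 ± 0.30 (SE, n = 3 each, limma adjusted p = 0.0155) at 24 h. AN10764 fell at 24 h (-1.18) and at 48 h (-1.01), and was past the limits at 48 h in 3 of the 6 fits that each left out 1 library. AN2938, an ortholog of a nucleotide pyrophosphatase in peroxisomes, was at -0.92 at 24 h without passing and fell by 1.02 at 48 h, just past the limit and past it in 2 of the 6 such fits.

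How firm these calls were depended on the time point and on the scaling. After quantile normalization *ivdA*, *acdA*, *acdB* and AN10078 still passed at 24 h. AN0180 (-0.93), AN0649 (-0.82), AN3880 (-0.83), *fatC* (-0.87), AN6761 (-0.81) and *aoxB* (-0.82) then did not. At 48 h AN0649 (-0.81), AN3880 (-0.90), *fatC* (-0.81) and AN9041 (-0.73) did not pass by that scaling, and the other fallen oxidation genes did. Nor did the peroxisomal genes AN6258 (-0.96) and AN2938 (-0.86) at 48 h. At 48 h, leaving out any 1 library kept between 10 and 12 of the 12 fallen oxidation genes past the limits, and without D33 1 more, *fatA*, passed. Among the 3 other peroxisomal proteins 1 to 3 stayed past them, with 1 left without B29, D31 or D32, and among the peroxins 1 to 4 fell, with 1 without D31. At 24 h no oxidation gene passed in limma once B22, B24 or D25 was left out, although 12, 13 and 11 of the 14 had an unadjusted p under 0.05 and all 14 were still lower. Leaving out D26 or B23 gave 13 fallen genes each, and leaving out D27 gave 9. The same held for every role at 24 h: of 26 genes past the limits, none passed in all 6 fits, whereas 28 of 42 did so at 48 h and 12 of 14 at 6 h, with AN10511 and AN9241 past the limits in 4 of the 6. At 48 h 5 genes passed in 3 or fewer of the 6 fits, AN10764, AN6258, AN9041, AN2938 and AN1855. Over all lipid, sterol and peroxisome genes at 24 h, limma counted 0 without B22, 0 without B24, 0 without D25, 17 without D27, 29 without B23 and 33 without D26, and 27, 28, 28, 31, 31 and 34 had an unadjusted p under 0.05. Of all 1503 genes listed at 24 h, 1, 1, 1, 744, 1091 and 1238 passed in the same fits, so the loss was not particular to these genes.

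Known genes of the same pathways, taken by the word rule or not, were looked up by symbol. Of 6 symbols looked up for acyl-CoA oxidation 4 were listed at 48 h, *scdA*, *echA*, *mthA* and *ivdA*, the last a gene of leucine breakdown, and all 4 fell, where 43% of all listed genes did. *echA*, the mitochondrial enoyl-CoA hydratase, averaged 25.4 ± 4.20 RPKM with BaP and 73.3 ± 19.4 RPKM with DMSO at 48 h (SD, n = 3 each), a log2 fold change of -1.47 ± 0.32 (SE). *scdA*, the short-chain acyl-CoA dehydrogenase, averaged 9.52 ± 2.04 RPKM with BaP and 33.97 ± 13.4 RPKM with DMSO, a change of -1.66 ± 0.36. Of 4 regulator symbols looked up 1 was listed, *farB*, one of the transcription factors that switch on fatty acid degradation genes. It fell at 24 h (-1.15 ± 0.27) and at 48 h (-1.28 ± 0.38). Of 8 peroxisome symbols looked up 2 were listed, and 1 of them, *pexE*, fell as given above. Of the glyoxylate cycle and acetyl-CoA genes, through which carbon from fatty acids reaches sugars, 3 of 8 were listed, *acuD*, *acuE* and *acuF*, and all 3 rose at 6 h, where 63.6% of all listed genes did. None of the 3 passed at 6 h under either other scaling: with library medians set equal *acuD* was at 0.28, *acuE* at 0.27 and *acuF* at -0.07, and after quantile normalization they were at 0.08, 0.03 and -0.26. *acuE*, malate synthase, averaged 298 ± 75.1 RPKM with BaP and 113 ± 6.36 RPKM with DMSO at 6 h, and 377 ± 105 RPKM with BaP and 141 ± 76.7 RPKM with DMSO at 24 h, where it rose by 1.51, passed in 3 of the 6 fits with 1 library left out and was at 0.80, without passing, after quantile normalization. The 3 oxylipin and 9 sterol symbols looked up were not listed at any time, and of the 6 fatty acid synthesis symbols 2 were, *sdeB* and *sdeA*. *sdeA*, the stearic acid desaturase that introduces the first double bond, rose by 1.28 ± 0.39 at 48 h (0.98 after quantile normalization, short of the limit), to 108 ± 54.8 RPKM with BaP, against 39.8 ± 4.69 RPKM with DMSO.

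Phospholipid synthesis genes formed the second set, with 13 members, and most of them were higher with BaP. At 6 h, 5 were listed, of which 4 rose and 1 fell, where 63.6% of all listed genes rose. None of the 4 passed with library medians set equal, where AN11159 was at 0.86, AN11161 at 0.78, AN7989 at 0.43 and AN10511 at -0.06, and after quantile normalization AN11159 alone of them passed (1.40), with AN11161 at 0.51, AN7989 at 0.32 and AN10511 at -0.22. At 24 h, again 4 of 5 rose and 1 fell, and at 48 h 7 of 9 rose and 2 fell, where 41.5% and 40.9% of all listed genes rose. The median log2 fold change of the set was 1.52 at 6 h, 1.03 at 24 h and 1.22 at 48 h, against 1.13, -0.19 and -0.57 over all listed genes. Different steps were listed at different times, and AN7989, AN5166, AN6139 and AN6530 were the genes that rose at 2 times.

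Phosphatidylserine decarboxylases, which make phosphatidylethanolamine, gave the largest rises of the set. AN7989, the annotated decarboxylase, had 362, 484 and 351 RPKM with BaP at 6 h, against 127, 136 and 149 RPKM with DMSO. At 48 h AN7989 had 434, 232 and 297 RPKM with BaP, against 32.1, 42.1 and 156 RPKM with DMSO. Both times the groups were apart, but at 48 h D33, the last of the DMSO values, stood well above the other DMSO libraries. The log2 fold change was 1.52 ± 0.17 (SE, n = 3 each, limma adjusted p = 3.41e-07) at 6 h and 2.36 ± 0.50 (SE, n = 3 each, limma adjusted p = 0.00184) at 48 h, where it was the largest rise among all lipid, sterol and peroxisome genes. AN11161 and AN11159 carry a decarboxylase domain and were listed at 6 h. AN11161 had 297, 339.9 and 271 RPKM with BaP, against 68.3, 89.1 and 88.3 RPKM with DMSO, and AN11159 had 24.4, 24.9 and 25.1 RPKM with BaP, against 4.42, 6.29 and 6.44 RPKM with DMSO. The pair rose by 1.88 ± 0.17 and 1.96 ± 0.17 (SE, n = 3 each). They lie on the minus strand of chromosome VII, AN11161 at bases 60977 to 62376 and AN11159 at 62473 to 64007, with 96 bases between them. Whether reads were shared between the 3 decarboxylase genes was not tested.

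Upstream, acyltransferases make phosphatidic acid and a synthetase turns it into CDP-diacylglycerol. AN6530, a lysophospholipid acyltransferase, had 158, 104 and 125 RPKM with BaP at 24 h, against 51.6, 75.3 and 42.7 RPKM with DMSO, and rose at 24 h (1.19 ± 0.30) and 48 h (1.23 ± 0.35). AN6139, a 1-acylglycerol-3-phosphate acyltransferase, had 50.5, 71.6 and 62.9 RPKM with BaP at 48 h, against 23.3, 23.2 and 29.7 RPKM with DMSO, and rose by 1.10 at 24 h and 1.24 at 48 h. AN5166, the CDP-diacylglycerol synthetase with the RefSeq symbol *cds1*, had 152, 141 and 129 RPKM with BaP at 48 h, against 51.96, 51.9 and 94.5 RPKM with DMSO. It rose by 1.03 at 24 h and 1.14 at 48 h. In all 3 genes each BaP library lay above each DMSO library at both times. After quantile normalization AN6139 passed at 48 h (1.05) but not at 24 h (0.72). By that scaling AN6530 (0.52 at 24 h and 0.87 at 48 h) and AN5166 (0.36 and 0.76) passed at neither time. AN2261, the phosphatidylserine synthase that uses CDP-diacylglycerol, was listed at 24 h, with 17.8, 8.99 and 14.9 RPKM with BaP, against 6.00, 6.47 and 5.99 RPKM with DMSO, and rose by 1.01, just past the limit. It also passed after quantile normalization (1.16).

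Phosphatidylcholine is made either by methylation of phosphatidylethanolamine or from choline, and genes of both routes rose at 48 h. *choC* (AN1376), a phospholipid methyltransferase, had 234, 167 and 218 RPKM with BaP, against 68.7, 70.9 and 136 RPKM with DMSO, a log2 fold change of 1.22 ± 0.34 (SE, n = 3 each, limma adjusted p = 0.00544). On the choline route, the choline kinase AN0929 had 76.6, 94.5 and 78.5 RPKM with BaP, against 22.7, 24.9 and 51.8 RPKM with DMSO, a change of 1.39 ± 0.35 (SE, n = 3 each, limma adjusted p = 0.00353). AN1357, for the next enzyme of that route, which joins phosphocholine to a cytidine nucleotide, had 69.9, 84.5 and 91.8 RPKM with BaP, against 28.5, 29.9 and 51.8 RPKM with DMSO, a change of 1.18 ± 0.33 (SE, n = 3 each, limma adjusted p = 0.00512). In all 3 genes D33 was the highest DMSO library and still under every BaP library. After quantile normalization AN0929 still passed (1.13), whereas *choC* (0.858) and AN1357 (0.895) did not.

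The genes of the set that fell were AN4778 and AN6610. AN4778, a phosphotransferase, had 139, 94.5 and 122 RPKM with BaP at 6 h, against 278, 218 and 298 RPKM with DMSO, and 102, 52.4 and 61.2 RPKM with BaP at 48 h, against 180.2, 166 and 119.9 RPKM with DMSO. It fell by 1.16 at 6 h, the one gene of the 18 to fall then, and by 1.14 at 48 h. AN6610 is annotated as the phosphatidylglycerol phosphate phosphatase, an enzyme on the way to cardiolipin, the phospholipid of mitochondria. AN6610 had 44.5, 42.8 and 37.95 RPKM with BaP at 48 h, against 117, 117 and 75.04 RPKM with DMSO, and fell at 24 h (-1.17) and 48 h (-1.26). AN10511, described only by phospholipid synthesis in the endoplasmic reticulum, rose by 1.04 at 6 h and was at -0.06 with library medians set equal and at -0.22 after quantile normalization.

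**Figure D3:**
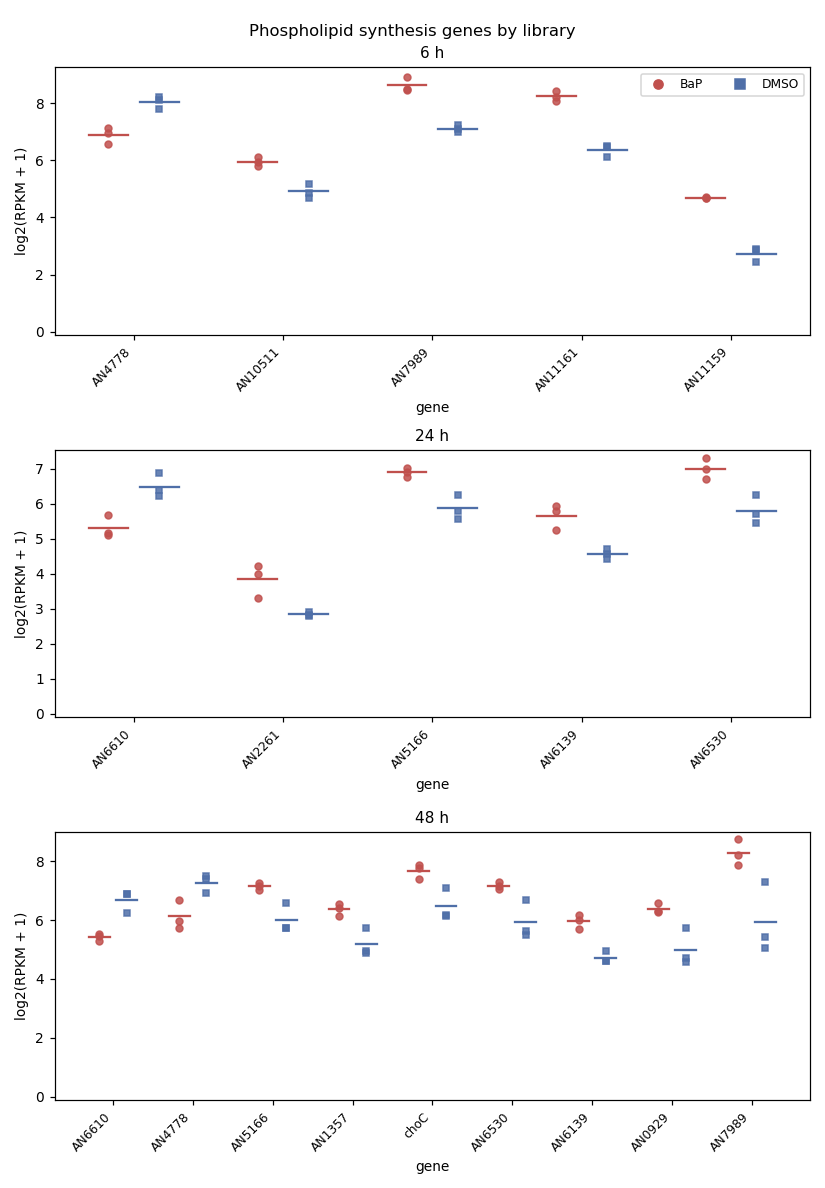
Levels of the phospholipid synthesis genes in every library, as log2(RPKM + 1), with BaP (red circles) and DMSO (blue squares) side by side and a bar at each group mean, at 6, 24 and 48 h (top to bottom). BaP lies above DMSO for 4 of 5, 4 of 5 and 7 of 9 genes, and under it for AN4778 and AN6610.

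The 4 sphingolipid and glycolipid genes were higher with BaP wherever they were listed, in 3 cases at 6 h, 4 at 24 h and 2 at 48 h, and all passed except AN1176 at 6 h, whose sign turned under another scaling. The share of all listed genes that rose was 63.6% at 6 h, 41.5% at 24 h and 40.9% at 48 h, and with so few genes nothing is read from the counts. At 6 h AN1607 still passed under both other scalings and *nce102* under neither (0.54 and 0.30). At 24 h AN1607 (1.94) and AN1176 (1.46) passed after quantile normalization, and *nce102* (1.00) and AN6874 (0.68) did not. AN1607 (chromosome VII, bases 1329619 to 1334180, minus strand), with a domain for transferring hexosyl groups to lipids, was the gene with the largest rise at 6 and 24 h. At 6 h it had 36.6, 65.9 and 47.9 RPKM with BaP, against 10.7, 8.11 and 9.66 RPKM with DMSO. At 24 h AN1607 had 87.5, 35.3 and 62.9 RPKM with BaP, against 9.38, 23.7 and 8.96 RPKM with DMSO. At 48 h it had 63.4, 72.7 and 83.4 RPKM with BaP, against 9.57, 10.8 and 34.2 RPKM with DMSO. The DMSO libraries were low and close together apart from D26 and D33, each the highest at its time. The means differed 5.28-fold, 4.42-fold and 4.03-fold, with log2 fold changes of 2.25 ± 0.20, 2.11 ± 0.47 and 2.17 ± 0.42 (SE, n = 3 each).

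*nce102* (AN7683) encodes an eisosome protein that holds back sphingolipid synthesis, and reached the highest RPKM of the 64 genes. It had 1746, 1246 and 1414 RPKM with BaP at 24 h, against 468, 1020 and 115 RPKM with DMSO. The second DMSO value is D26, close to the BaP libraries, and the log2 fold change of 1.93 carried an SE of 0.71 (n = 3 each, limma adjusted p = 0.0338). At 6 h, where the replicates lay closer, *nce102* had 309.6, 408 and 300.1 RPKM with BaP, against 93.2, 116 and 114 RPKM with DMSO, and rose by 1.64 ± 0.17. AN1176, a long chain base kinase, which phosphorylates sphingoid bases, was at 0.97 at 6 h (-0.13 with library medians set equal) and rose by 1.35 at 24 h and 1.28 at 48 h. AN6874, the counterpart of yeast Alg2 in building the lipid-linked sugar for protein glycosylation, had 188, 155 and 156 RPKM with BaP at 24 h, against 62.5, 117 and 34.5 RPKM with DMSO, and rose by 1.38.

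The genes described by ergosterol synthesis did not all move one way, since AN0608 and AN10764, placed above with the peroxisomal proteins, fell at 24 and 48 h. Of the 4 genes placed in the sterol role, AN0432 stood out by rising at all 3 times. At 6 h, though, its log2 fold change was 0.09 with library medians set equal and -0.13 after quantile normalization, neither past the limits. After quantile normalization it was also short of the limit at 24 h (0.94). AN0432 has orthologs with cytochrome b5 reductase activity, which supplies electrons to ergosterol synthesis. It had 69.95, 101 and 81.0 RPKM with BaP at 6 h, against 30.2, 42.5 and 36.6 RPKM with DMSO. At 24 h AN0432 had 162, 128 and 154 RPKM with BaP, against 53.5, 102 and 21.9 RPKM with DMSO. At 48 h it had 218, 214 and 185 RPKM with BaP, against 28.4, 37.9 and 124 RPKM with DMSO. D26 and D33 were again the DMSO libraries nearest to BaP. The log2 fold changes were 1.18 ± 0.18, 1.56 ± 0.51 and 1.98 ± 0.45 (SE, n = 3 each). AN5879, whose orthologs move sterols inside the cell, had 599.6, 591 and 490 RPKM with BaP at 48 h, against 198, 208 and 397 RPKM with DMSO, and rose by 1.13. It was past the limits in 4 of the 6 fits with 1 library left out, and not without D31 or D32. AN4208, whose orthologs esterify ergosterol for storage, had 98.4, 106 and 96.7 RPKM with BaP at 24 h, against 50.96, 90.3 and 25.5 RPKM with DMSO, and narrowly missed the p limit (log2 fold change 1.02, limma adjusted p = 0.0527). AN9275, a C-4 sterol methyl oxidase gene, was listed at 0 RPKM in every BaP library at 24 h, against 0.245, 0.140 and 0.211 RPKM with DMSO. Those DMSO values stand for at most 2 reads each, so no fold is given.

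**Figure D4:**
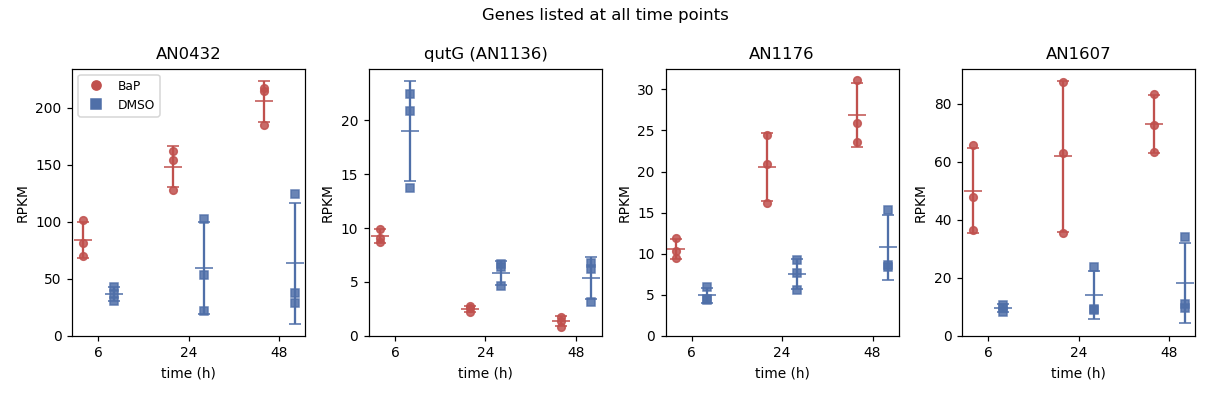
RPKM in every library of the 4 genes listed at all 3 times, with BaP (red circles) left of DMSO (blue squares) at 6, 24 and 48 h. Horizontal bars are means and vertical bars standard deviations of 3 libraries. In AN0432, AN1176 and AN1607 each BaP library lies above each DMSO library of its time, and in *qutG* each lies below.

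Lipases and lipid esterases moved in both directions. Of 8 genes, 3 of 4 listed rose at 6 h and 3 of 4 at 24 h, and at 48 h 2 rose and 2 fell. The share of all listed genes that rose was 63.6% at 6 h, 41.5% at 24 h and 40.9% at 48 h, where 43% fell. With so few lipases and esterases nothing is read from these counts. At 6 h none of these genes passed with library medians set equal, and AN5159 alone passed after quantile normalization (1.25). The sign of AN4684 and AN4154 turned under 1 of these scalings, as given below. At 48 h 1 gene rose without B29, B30, D31 or D32. AN5159, whose orthologs cleave the acetyl group of platelet-activating factor-like phospholipids, had 32.4, 32.5 and 33.6 RPKM with BaP at 6 h, against 5.26, 12.98 and 6.26 RPKM with DMSO. The 3 BaP libraries were nearly the same, and the gene rose by 1.98 ± 0.23 (SE, n = 3 each, limma adjusted p = 4.72e-07). AN7604, a phospholipase, had 53.4, 64.3 and 55.8 RPKM with BaP at 6 h, against 20.5, 21.1 and 20.5 RPKM with DMSO, and rose by 1.43 at 6 h and 1.16 at 24 h. The triacylglycerol lipase AN4684 rose by 1.27 at 6 h, where quantile normalization brought it to -0.02, and by 1.20 at 24 h, where it had 437, 287 and 292 RPKM with BaP, against 144, 286 and 72.8 RPKM with DMSO. In that gene D26, the second DMSO value, all but reached the lowest BaP library.

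Of the other lipid hydrolases, AN8743, with a triglyceride lipase domain, had 61.9, 50.5 and 46.8 RPKM with BaP at 48 h, against 14.97, 14.6 and 38.7 RPKM with DMSO, and rose by 1.04 at 24 h and 1.32 at 48 h. The triacylglycerol lipase AN8046 went the other way, with 6.68, 12.2 and 7.28 RPKM with BaP at 48 h, against 26.9, 30.4 and 17.4 RPKM with DMSO, and fell by 1.42. Triacylglycerol is the storage fat, and genes annotated to break it down were found in both directions. The phosphodiesterase-domain genes split as well, with AN1855 up by 1.04 (past the limits in 2 of 6 fits with 1 library left out) and AN6382 down by 1.14 at 48 h. At 24 h AN6382 was at -0.82, and at 6 h the esterase AN4154 was at 0.94 (-0.15 with library medians set equal), neither past the limit.

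Few genes of fatty acid synthesis were listed. *sdeB* (AN4135), a stearic acid desaturase, had 0.911, 0.710 and 0.627 RPKM with BaP at 24 h, against 0.565, 0.257 and 0.292 RPKM with DMSO, at most 22.6 reads in any library, and did not pass (log2 fold change 0.36, limma adjusted p = 0.167). AN5000, with orthologs in fatty acid elongation, was at 0.89 at 48 h, short of the limit. *pkiB* (AN3380), a fatty acyl-CoA synthase described as part of secondary metabolism, had 3.19, 6.73 and 3.53 RPKM with BaP at 48 h, against 12.6, 14.3 and 8.67 RPKM with DMSO, and fell by 1.26. None of these 3 genes was listed at more than 1 time.

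The remaining 8 genes bind lipids or carry a lipid term with no clear place in a pathway. At 48 h 6 were listed, of which 3 rose and 2 fell, where 40.9% of all listed genes rose and 43% fell. Without D31, 1 of the 6 rose and 1 fell. AN10629, described only by a domain for lipid metabolism, had 139.7, 112 and 88.9 RPKM with BaP at 48 h, against 15.6, 19.98 and 66.5 RPKM with DMSO, and rose by 1.98 ± 0.46 (SE, n = 3 each, limma adjusted p = 0.00254). At 6 h AN4636, with orthologs in ascospore wall assembly, rose by 1.56, the phospholipid-binding AN5671 by 1.37 and the zinc-binding AN9241 by 1.03. With library medians set equal none of the 3 passed, and AN9241 was at -0.06, while after quantile normalization AN9241 alone of them passed. It rose again at 48 h (1.02). AN3807, with lipid-binding orthologs, rose by 1.14 at 48 h, AN2749 stood at 0.95 without passing, and AN5829, described by anchoring of proteins at the cell cortex, fell by 1.09. *qutG* (AN1136) had 9.94, 8.70 and 9.12 RPKM with BaP at 6 h, against 20.9, 13.7 and 22.4 RPKM with DMSO, and 0.840, 1.78 and 1.38 RPKM with BaP at 48 h, against 6.20, 6.73 and 3.11 RPKM with DMSO. It was lower with BaP at all 3 times, at -0.94, -0.96 and -1.41, and passed both limits at 48 h.

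The direction at 6 h depended on the scaling between libraries more than at the later times. Because most genes listed at 6 h rose, setting library medians over the listed genes equal shifted the log2 fold changes of all listed genes, by a median of -1.10. Quantile normalization shifted them by a median of -1.04. Under the first, 1 of the 18 genes was still past the limits upward, AN1607 (1.16), and 2 fell, AN4778 (-2.26) and *qutG* (-2.04). Under the second, AN1607 (1.18), AN11159 (1.40), AN5159 (1.25) and AN9241 (1.01) rose and the same 2 fell. At 24 and 48 h no lipid, sterol or peroxisome gene changed sign under either scaling. With library medians set equal, 25 of the 26 genes past the limits at 24 h and 39 of the 42 at 48 h still passed. After quantile normalization 11 of the 26 and 27 of the 42 did.

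Between time points the effects of BaP were compared with an interaction term in limma over the genes that both tables list. For 24 against 6 h, 7 lipid, sterol or peroxisome genes were shared and none differed, as for 0 of the 374 genes shared in all (0%). For 48 against 24 h, 28 were shared and none differed, as for 0 of 915 (0%). For 48 against 6 h, 7 were shared and none differed, while 3 of 241 shared genes did (1.24%). The count with an unadjusted p under 0.05 was 0 in each of the 3 comparisons. All 28 genes shared by 24 and 48 h kept their direction, and 22 of them lay farther from 0 at 48 h, with differences from -0.76 to 0.58 on the log2 scale. Only genes called beforehand at both times could enter, so neither the shared direction nor the lack of differences is independent evidence. The median absolute log2 fold change of all listed genes was likewise larger at 48 h (1.30) than at 24 h (1.17). How many of the 915 shared genes kept their direction was not counted. The largest difference was in AN0608, -2.14 at 48 h and -1.38 at 24 h (difference -0.76 ± 0.47, SE). It was followed by *aoxB*, nearer to 0 at 48 h (difference 0.58 ± 0.35, SE), and *ivdA* (difference -0.56 ± 0.58, SE), and in each the error was wide. Leaving out D33 changed the comparison of 48 with 6 h, where AN0432 (difference 1.42 ± 0.29, SE, limma adjusted p = 0.000412), AN7989 (1.52 ± 0.32, adjusted p = 0.000595) and *qutG* (-0.76 ± 0.30, adjusted p = 0.0334) then differed. How many of the 241 shared genes differed without D33 was not counted. D33 was the DMSO library nearest to BaP for 89.1% of all genes listed at 48 h, so nothing is read from these 3 genes.

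**Figure D5:**
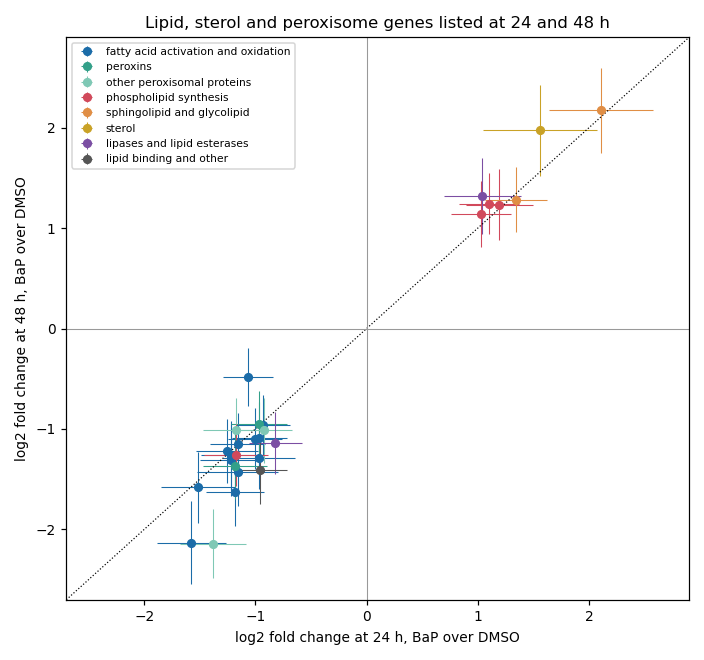
Log2 fold change of BaP over DMSO at 24 h (x axis) and 48 h (y axis) for the 28 genes listed at both times, coloured by role, with standard errors. The dotted line marks equal effects. All oxidation and peroxisomal genes lie in the lower left, and the sphingolipid and sterol genes and 3 phospholipid genes in the upper right, with no gene in the other corners.

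The 64 genes lay on all 8 chromosomes, with 15 on chromosome I and 13 on chromosome VIII. Coordinates are those of the tables, which name no genome build. Within 20000 bases of each other lay 6 pairs. AN11161 and AN11159, described above, rose together at 6 h, and AN9041, the hydroxyacyl-CoA dehydrogenase gene 2385 bases from AN11161 on the same strand, was listed at 24 and 48 h and not at 6 h. AN6761 and *aoxB*, 10961 bases apart on chromosome I, both fell at 24 h. In the other pairs the 2 genes went in opposite directions: *ivdA* and the lipase AN4684 (8120 bases apart), *acdA* and the phosphatidylserine synthase AN2261 (4315 bases apart), and AN10078 and AN0432 (18333 bases apart).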

How the data were processed

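The analysis used 18 libraries, 3 BaP and 3 DMSO cultures at each of 3 time points; the 3 samples taken before treatment were not analysed here. The authors deposited 1 table per time point, restricted to genes they had called, in which 6 columns give a value per library. The unit is not named. The deposited values were read as RPKM: after division by 1 factor per library, the low values of a gene are whole multiples of 1 step, and that factor gave the library sizes. The submitters' processing notes name FastQC, Subread, featureCounts, limma and Cufflinks; the genome build is not given in the sources used here. The tables also hold the authors' mean expression, fold changes and p-values, which were not used.

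Each table was fitted on its own in limma (version 3.58.1, under R 4.3.3) after adding 1 RPKM and taking log2, with Benjamini-Hochberg adjustment over the listed genes and no covariates. The numbers of reads stated are upper bounds, computed from the gene's whole genomic span. Figures were drawn with Python 3.11.15 and matplotlib 3.10.9, and the code was tested on simulated data. p-values measure the spread between 3 cultures per group, collected in triplicate.

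The members and the lists were chosen with earlier results of these data known. The text names each gene that passed at 2 or more times, the 5 largest rises and falls at each time, and each gene with a symbol, except 1 gene with a symbol that is counted but not reported here by name. The other genes were named after their values were seen. Roles were set from words in the descriptions, and 18 genes were placed in another role than the words gave after their descriptions were read. RefSeq (ASM1142v1) gave symbols only, and 63 of 64 genes matched a locus tag. No promoter or protein sequences were used here.

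Alternatives were another pseudocount (0.1), minimum means of 1 and 5 RPKM, library medians set equal or quantile normalization over the listed genes, other limits (adjusted p under 0.01, log2 fold change past 2 or no fold limit), a mean-variance trend, adjustment over 10453 RefSeq protein-coding genes with unlisted genes given a p of 1, and each library left out in turn.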

Additional observations from a re-analysis of the deposited data

How the results depend on the processing

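The number of genes past the limits was 14 at 6 h, 26 at 24 h and 42 at 48 h. At 6 h it was 3 with library medians set equal, 6 after quantile normalization and 1 with a fold change limit of 2. Of all 703 genes listed at 6 h, 202, 178 and 45 passed under the same settings. At 24 h it was 11 after quantile normalization, 1 with a limit of 2, and 0 with an adjusted p under 0.01 or with adjustment over all protein-coding genes, where limma gave 34 genes an unadjusted p under 0.05. Of all 1503 genes listed at 24 h, 702 passed after quantile normalization, 81 with a limit of 2 and 1 under either of the other settings. At 48 h it was 4 with a limit of 2, where 160 of all 1529 listed genes passed, and otherwise stayed within 28 to 46 genes. Leaving out 1 library gave 13 to 16 genes at 6 h, 0 to 33 at 24 h and 33 to 45 at 48 h, and the count of genes whose effect differed between 6 and 48 h was 0 to 3. Over all listed genes, leaving out 1 library gave 448 to 552 at 6 h, 1 to 1238 at 24 h and 1080 to 1404 at 48 h. Roles were also counted without each library, a check added after seeing the data.

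Genes that changed sign did so at 6 h, where AN1176 was at -0.13, AN9241 at -0.063, AN3239 at -0.35, AN4154 at -0.15 and AN10511 at -0.06 with library medians set equal, and AN0432 was at -0.13, AN4684 at -0.016 and AN10511 at -0.22 after quantile normalization. By the same 2 scalings no gene changed sign at 24 or 48 h. No gene chosen by the naming rule changed sign at 24 or 48 h under any alternative run, and none changed sign when a library was left out. The cause of these shifts was not tested, apart from the scalings, which force the median of a table of mostly risen genes to 0.

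No paired analysis was possible because the columns of the tables carry no replicate numbers. Precision is limited by few reads for *aoxB* at 48 h, AN5287, *sdeB* and AN9275, and also for genes given above as fallen. At 48 h the lowest library held at most 2.18 reads for *fatC*, 3 for AN9041 and 6 for AN6382. For AN6761 it held at most 5.54 at both 24 and 48 h, and for *aoxB* at most 7.06 at 24 h. AN3239 at 6 h and AN5000 at 48 h had at most 28.9 and 27.8 reads in any library. Throughout, precision is limited by 3 cultures per group and by tables that hold called genes alone.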
